A study of Gallus gallus with 2 samples.

Results

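CTCF peaks on chicken chromosome 1, the longest chromosome of the lists by the position of its last peak, were taken from 2 genome-wide maps of nucleated red blood cells, one labelled 10 days old and the other 5 days old. The peaks were chosen by sequence name alone, as every row of either list on chromosome 1. This gave 3370 of 21358 peaks at 10 days (15.8%, 95% interval 15.3 to 16.3) and 656 of 5830 peaks at 5 days (11.3%, 10.5 to 12.1). Chromatin was immunoprecipitated with an antibody against CTCF and sequenced, with 1 library per age. The source and cell type fields of both samples say red blood cells, while their growth and treatment fields describe density-purified mononuclear blood cells stimulated with PMA and Io. Whether the days are embryonic or after hatching is not stated in the labels, nor is the number of animals in a library. Peak lists hold no expression, so the cell type could not be checked against markers.

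The zinc finger protein CTCF occupies insulators, DNA elements that separate a gene from the enhancers of its neighbours. Together with cohesin it marks the bases of many chromatin loops and the borders of domains, and clusters of CTCF sites are often found at such borders. Avian red cells keep their nucleus, and an insulator at the chicken beta globin locus was among the first whose activity was traced to CTCF.

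Every peak is 399 bp wide and carries a whole-number score that the authors deposited. The sources used here do not give what the score measures, the read depth, any input library or the genome build, so scores were compared only by rank within their own list. Intervals given below are exact 95% intervals for counting error alone. A single library stood for each age, without replicates, so the ages were not tested against each other. Positions count the first base of the chromosome as 1. The first peak started at 14572 at 10 days and at 15907 at 5 days, and the last ended at 200981711 at 10 days and at 200869165 at 5 days. The 10 day list held 16.8 peaks per Mb over this span and the 5 day list 3.26 peaks per Mb, a ratio of 5.14 (4.72 to 5.59). When the 10 day list was limited to its highest scores, at most as many peaks as the 5 day list, the ratio on chromosome 1 was 1.26 (1.14 to 1.40).

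The other large chromosomes, 2 to 5, were the closest comparison. At 10 days chromosome 1 had 0.934 times their density (16.8 against 18.0 peaks per Mb, interval of the ratio 0.897 to 0.973). This order turned round to 1.01 (0.931 to 1.10) when the 10 day list was limited to the length of the 5 day list. At 5 days the ratio was 0.953 (3.26 against 3.43 peaks per Mb, 0.868 to 1.05), an interval that includes 1. The surplus of 10 day over 5 day peaks was similar to that of chromosomes 2 to 5 pooled. The count ratio was 5.14 on chromosome 1 and 5.24 on chromosomes 2 to 5. The first ratio was 0.98 times the second (0.885 to 1.09). Against chromosome 2 alone it was 0.836 times (0.730 to 0.956), and against chromosome 5 alone 1.35 times (1.16 to 1.57). Chromosome 1 therefore lay between these 2 chromosomes in its ratio of 10 day to 5 day peaks.

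Chromosome 1 was divided into 41 bins of 5 Mb from its first base, of which 40 were full. The 10 day peaks were spread fairly evenly over the full bins, and the 5 day peaks were not. Counts per full bin ran from 40 to 113 at 10 days, with a median of 87 and a coefficient of variation over bins of 20.9%. At 5 days they ran from 0 to 55, with a median of 12 and a coefficient of variation of 71.1%. The 5 richest bins of each list held 15.9% (14.7 to 17.2) of all peaks at 10 days and 29.3% (25.8 to 32.9) at 5 days. These bins were picked from the same counts, which raises their share, and the intervals do not allow for this. Counting noise alone is larger, in relative terms, for the smaller 5 day counts, and its part in the difference between the ages was not tested. On chromosomes 2 to 5 the coefficients over 82 full bins were 23.0% at 10 days and 65.6% at 5 days.

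**Figure D1:**
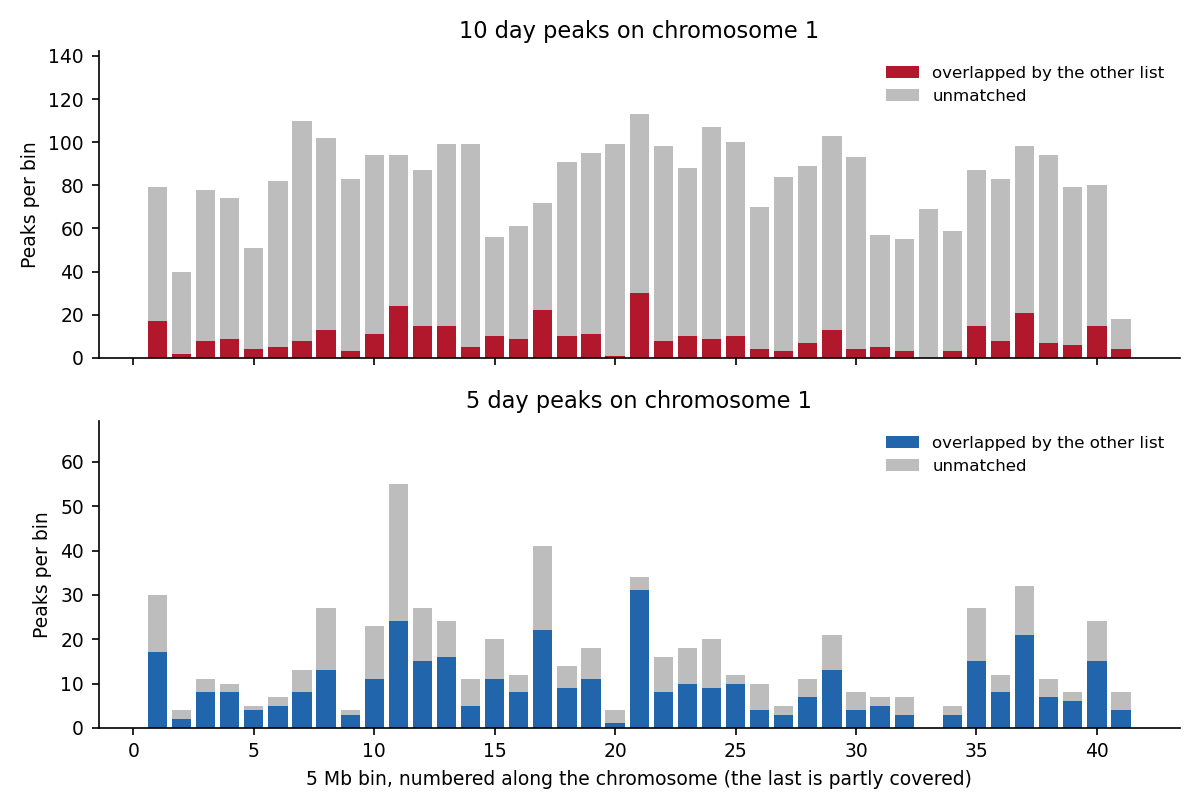
Number of CTCF peaks in each 5 Mb bin along chromosome 1, at 10 days (upper panel) and 5 days (lower panel, with its own axis). Coloured parts are peaks overlapped by the other list and grey parts are unmatched; the 10 day bars run from 40 to 113 in full bins and the 5 day bars from 0 to 55.

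The richest bin at 10 days lay from 100 to 105 Mb. It held 113 peaks at 10 days and 34 at 5 days, and was the third richest at 5 days. Of these, 28 and 26 fell within a single window of 100 kb. At each age the other peaks of the bin were fewer than the medians of 87 and 12 peaks per full bin. The richness of this bin thus came from 1 place at both ages. The next richest 10 day bins, from 30 to 35 Mb and from 115 to 120 Mb, held 110 and 107 peaks at 10 days, against 13 and 20 at 5 days. In both of them the peaks were spread out, over 44 of the 50 possible windows of 100 kb at 10 days, and over 10 and 11 windows at 5 days.

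The 5 day list was richest from 50 to 55 Mb. That bin held 94 peaks at 10 days and 55 at 5 days, a ratio of 1.71 (1.21 to 2.43), the lowest of all full bins with 5 day peaks. Its 55 peaks lay in 27 windows with at most 4 in each, so this was a broad stretch rather than a cluster. Of them, 24 were overlapped by a 10 day peak and 31 were not. The second richest 5 day bin, from 80 to 85 Mb, held 72 peaks at 10 days and 41 at 5 days, a ratio of 1.76 (1.18 to 2.64). It was below the median bin at 10 days and well above it at 5 days.

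The poorest full bin at 5 days lay from 160 to 165 Mb, with 69 peaks at 10 days and 0 at 5 days. None of its 69 peaks scored above 35, and none was in the top 10% of the 10 day list. With 0 peaks at 5 days all 69 were unmatched. Of all 2983 unmatched 10 day peaks of the chromosome, 47 were in the top 10%. The matching count on other chromosomes is not given here. From 5 to 10 Mb there were 40 peaks at 10 days, the lowest count of that age, and 4 at 5 days. This sparse bin nevertheless contained the highest scoring 5 day peak of the chromosome. The bin from 40 to 45 Mb held 83 peaks at 10 days and 4 at 5 days, a ratio of 20.8 (7.81 to 77.9). An even wider ratio, 24.8 (9.37 to 92.6), was seen from 95 to 100 Mb, where 99 peaks were listed at 10 days and 4 at 5 days. The other poorest bins at 10 days lay from 20 to 25 Mb, with 51 and 5 peaks, and from 155 to 160 Mb, with 55 peaks at 10 days and 7 at 5 days. From 150 to 170 Mb all 4 bins were below the 10 day lower quartile of 73.5 and the 5 day lower quartile of 7.75.

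The ratio of 10 day to 5 day counts thus ranged from 1.71 to 24.8 over the 39 full bins with 5 day peaks, with a median of 6.92. Of the 10 richest bins at 10 days, 3 were among the 10 richest at 5 days. The last of these 10 places was tied at 98 peaks between the bins from 105 to 110 and from 180 to 185 Mb. It went to the lower start, while the bin left out was among the 10 richest at 5 days. Of the 10 poorest, 6 were shared by both ages. The richest were taken from 41 bins and the poorest from 40, so some sharing arises by number alone. Neither count was tested against it. The rank correlation (Spearman) of the counts over the 40 full bins was 0.45, where the bins share their assembly gaps and mappable sequence, and overlapping peaks enter both counts.

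The counts of the highest scoring 10 day peaks resembled the 5 day profile most, and these peaks also shared the most positions with it. The whole 10 day list was divided by score rank into 5 classes, which tied scores made unequal in size. On chromosome 1 they held 594, 559, 985, 575 and 657 peaks, from the highest class to the lowest. Peaks scoring 31 or more numbered between 5 and 42 per full bin of chromosome 1, and their counts had a rank correlation of 0.80 with the 5 day counts. Lower classes showed little of this: 0.24 for scores of 27 to 30, 0.07 for 24 to 26, -0.03 for 23 and 0.25 for 22. Many of the highest scoring peaks are the same positions in both lists, which by itself ties the 2 counts together. For those scoring 31 or more that had no 5 day counterpart the correlation was 0.21. Unmatched peaks of the lower classes, in the same order, gave 0.09, 0.02, -0.08 and 0.19. Among unmatched peaks the highest and the lowest class were thus close. These values describe 40 bins of the same 2 libraries and are not tests. With overlapped peaks included, the highest class on chromosomes 2 to 5 gave 0.79 and the others 0.40, 0.46, 0.21 and 0.28, over 82 bins. Unmatched peaks alone gave 0.33 there for the highest class and 0.34, 0.42, 0.17 and 0.24 for the others. Each of these was higher than on chromosome 1. The 82 bins, however, pool chromosomes of unlike density, at 5 days 2.72 peaks per Mb on chromosome 2 and 5.13 on chromosome 5. The values are therefore not like for like.

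**Figure D2:**
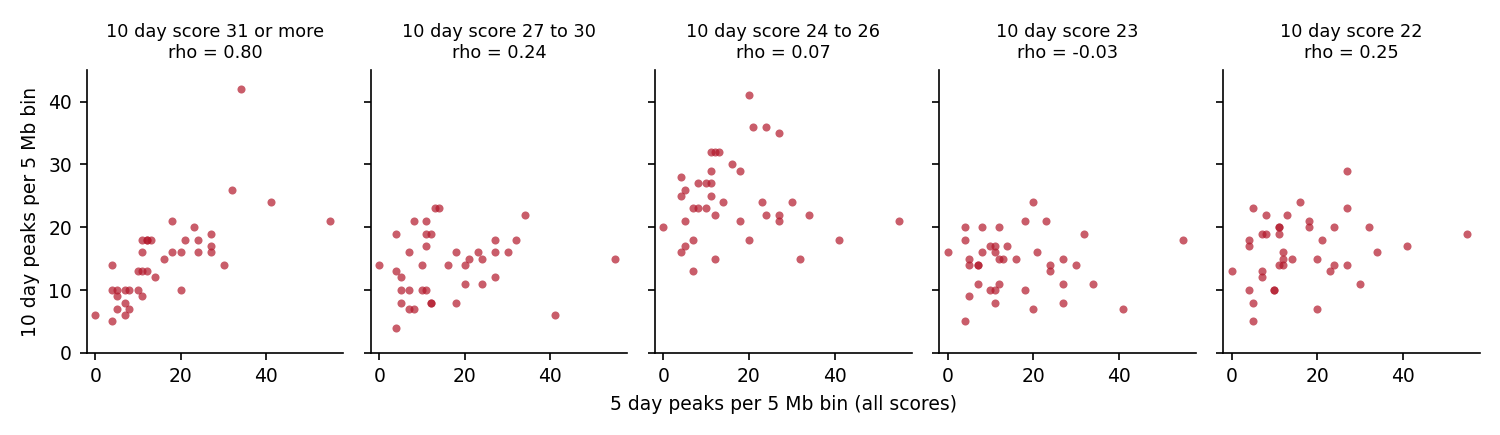
Counts of 10 day peaks against counts of 5 day peaks in the 40 full 5 Mb bins of chromosome 1, with 1 panel per class of 10 day score and rho for Spearman's rank correlation. The panel of scores of 31 or more slopes upward (0.80), and the 4 lower classes have correlations between -0.03 and 0.25. Peaks overlapped by the 5 day list are included in every panel.

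Overlap was called when a peak of the other list covered at least 1 bp. On chromosome 1, 387 of 3370 peaks at 10 days (11.5%, 10.4 to 12.6) were overlapped, against 15.8% of the whole 10 day list. At 5 days, 387 of 656 peaks (59.0%, 55.1 to 62.8) were overlapped, against 57.6% of the whole 5 day list. The unequal shares follow from the unequal list lengths, since the same overlaps are counted over more peaks at 10 days. With the 10 day list limited to at most the length of the 5 day list, they were 35.7% at 10 days and 45.3% at 5 days. Compared with chromosomes 2 to 5, the odds of overlap on chromosome 1 were 1.06 times as high at 10 days (0.930 to 1.21) and 1.08 times as high at 5 days (0.895 to 1.31). Both intervals include 1. At 10 days the odds were 1.26 times as high as on chromosome 2 alone (1.06 to 1.50). They were 0.691 times as high as on chromosome 5 alone (0.571 to 0.837). The 10 day intervals against chromosomes 3 and 4, and all 5 day intervals against single chromosomes from 2 to 5, included 1.

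The overlapped share varied along the chromosome. The 10 day share of a bin is limited by its number of 5 day peaks, so it partly restates the 5 day counts. From 80 to 85 Mb, 22 of the 72 peaks at 10 days (30.6%) and 22 of the 41 at 5 days (53.7%) were overlapped. From 100 to 105 Mb the counts were 30 of 113 peaks at 10 days (26.5%) and 31 of 34 at 5 days (91.2%), the highest 5 day share of any full bin. Of these overlapped peaks, 23 at 10 days and 25 at 5 days lay in the single window of 100 kb from 104400001. Outside that window the 10 day share of the bin was below the median of 9.82% over full bins. The lowest 10 day share was that from 160 to 165 Mb, with 0 of 69 peaks overlapped, which follows from its 0 peaks at 5 days. From 95 to 100 Mb, 1 of 99 peaks at 10 days and 1 of 4 at 5 days was overlapped. This was the lowest 5 day share, with a wide interval (0.631 to 80.6%). In the 5 day bin with the most peaks, from 50 to 55 Mb, 43.6% of the 5 day peaks were overlapped (30.3 to 57.7).

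Recovery followed the score. The overlapped peaks of chromosome 1 had median scores of 41 at 10 days and 31 at 5 days, and the unmatched peaks had medians of 24 at 10 days and 16 at 5 days. Among 10 day peaks scoring 31 or more, 272 of 594 (45.8%, 41.7 to 49.9) were overlapped, whereas 12 of 657 (1.83%, 0.947 to 3.17) of those at the lowest score of 22 were. Among 5 day peaks, 126 of 136 scoring 43 or more (92.6%, 86.9 to 96.4) and 28 of 128 scoring 13 or 14 (21.9%, 15.1 to 30.0) were overlapped. Within the score classes, the odds ratio of overlap on chromosome 1 against chromosomes 2 to 5 lay between 0.883 and 1.51 at 10 days. At 5 days it lay between 0.844 and 1.49, and all 10 intervals included 1. Against all other sequences, it was 0.645 (0.540 to 0.770) for 10 day scores of 31 or more. For 10 day scores of 27 to 30 it was 0.718 (0.510 to 0.993). In the other 10 day classes and in every 5 day class the interval against all other sequences included 1. Of the 100 highest scoring peaks on chromosome 1, 98 at 10 days and 95 at 5 days were overlapped. These peaks were spread along the sequence, in 34 bins at 10 days and in 36 bins at 5 days. How many of the 100 highest peaks of other chromosomes were overlapped is not given here.

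**Figure D3:**
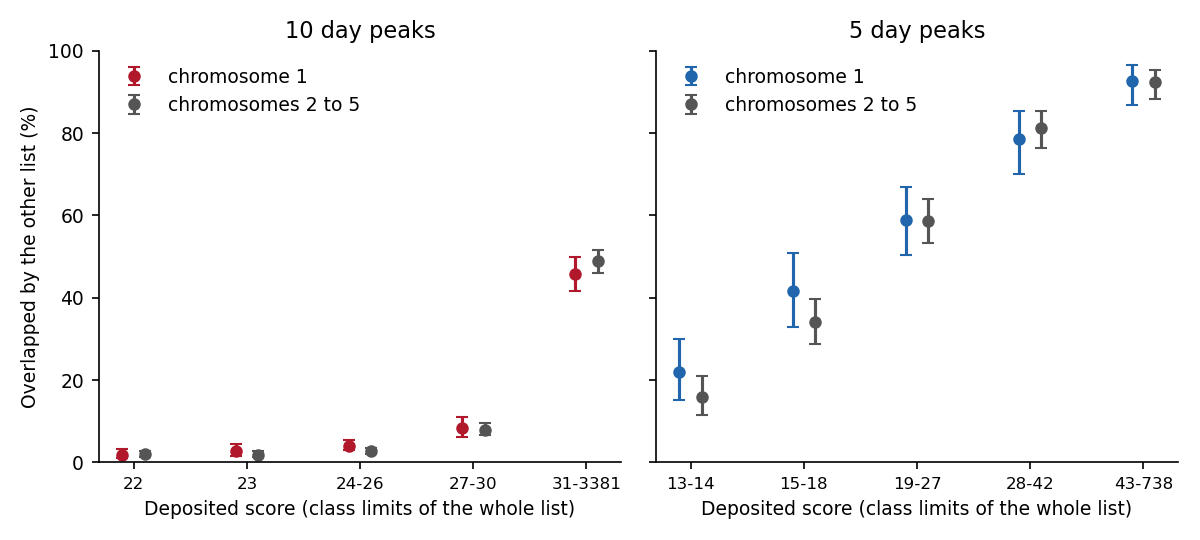
Share of peaks overlapped by the other list in each score class, for 10 day peaks (left) and 5 day peaks (right), on chromosome 1 (colour) and chromosomes 2 to 5 (grey), with exact 95% intervals. On chromosome 1 the share goes up to 45.8% at 10 days and 92.6% at 5 days in the highest class, and the intervals of the 2 sets overlap in every class.

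Unmatched peaks rarely lay just outside the overlap rule. Of 2983 unmatched 10 day peaks, 29 (0.972%) had a 5 day peak starting within 1 kb, and the median distance to the nearest 5 day start was 172 kb. Of 269 unmatched 5 day peaks, 14 (5.20%) had a 10 day peak starting within 1 kb, with a median distance of 15.6 kb. The shorter distance for 5 day peaks goes with the greater number of 10 day peaks. Where peaks did overlap, their positions were close: over 381 pairs in which each was the longest overlap of the other, the starts differed by a median of 34 bp (interquartile range 13 to 61), and 78 pairs (20.5%) lay within 10 bp. On all other sequences the median was 39 bp over 2937 pairs, and 19.2% lay within 10 bp. On chromosome 1 the 10 day start was to the right in 181 pairs and to the left in 188. Scores of the paired peaks had a rank correlation of 0.61 over these 381 pairs, which share libraries and sequence.

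The median score of chromosome 1 was near the middle of each list, while its share of the highest scores at 10 days was below that of the whole list. Scores had a median of 25 at 10 days (interquartile range 23 to 28) and of 22.5 at 5 days (15 to 38). The median peak stood at percentile 51.0 in its list at 10 days and at percentile 50.3 at 5 days. At 10 days 657 peaks (19.5%) were at the lowest score of the list, as were 3461 of the 17988 peaks on all other sequences, a similar share. The top 10% of each list by score, scores of at least 40 at 10 days and 57 at 5 days, took in 250 of the 3370 peaks at 10 days (7.42%, 6.56 to 8.36) and 76 of the 656 at 5 days (11.6%, 9.24 to 14.3). With ties, these limits took in 10.0% of all listed peaks at 10 days and 10.3% at 5 days. Against all other numbered chromosomes and Z the odds of such a score were 0.811 times as high at 10 days (0.703 to 0.933) and 1.32 times as high at 5 days (1.004 to 1.72). Against chromosomes 2 to 5 they were 1.10 times as high at 10 days (0.936 to 1.29) and 1.43 times as high at 5 days (1.04 to 1.96). Both 5 day intervals excluded 1 only with the densest window of the chromosome included. This window was left out of chromosome 1 alone, while the compared chromosomes kept all their peaks. Both 5 day values were then lower but stayed above 1. Without the 100 kb from 104400001, the odds ratios against chromosomes 2 to 5 were 0.981 at 10 days (0.830 to 1.16) and 1.21 at 5 days (0.867 to 1.69), and those against the wider set were 0.724 (0.623 to 0.838) at 10 days and 1.12 (0.832 to 1.49) at 5 days. With the window included, the 10 day odds ratio was 0.737 (0.584 to 0.935) against chromosome 5 alone. It was 1.07 against chromosome 4 and 1.27 against each of chromosomes 2 and 3.

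High scoring peaks were scattered in number along the chromosome. At 10 days the bins held a median of 5 peaks of the top 10%, and the bin from 100 to 105 Mb held 33. At 5 days the median was 1 and the same bin held 14, while 9 full bins held 0. In the bin from 100 to 105 Mb, 27 of the 33 and 13 of the 14 lay in the single window of 100 kb from 104400001. After that bin, the highest 10 day counts were 13 each from 80 to 85 Mb and from 180 to 185 Mb, where the 5 day counts were 5 and 2.

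The highest scoring peaks of both ages were largely the same positions. The peak from 146895098 to 146895496 had the highest 10 day score on the chromosome, 816, and a score of 198 at 5 days at the identical position. A second strong 10 day peak, with a score of 596, started at 146901784. The peak from 9648599 to 9648997 scored 700 at 10 days, and its 5 day partner, displaced by 1 bp, had the highest 5 day score, 355. It stood alone at 5 days, with the nearest other start 635 kb away. The remaining 3 of the 5 highest overlapped 10 day peaks lay in the window from 104400001, with scores of 689, 670 and 596. Their 5 day partners scored 174, 265 and 192. Near the right end, a 10 day peak with a score of 285 overlapped the 5 day peak from 200195842 to 200196240, whose score of 219 was the third highest of that age. A 10 day peak with a score of 295 overlapped the 5 day peak from 151771549 to 151771947, which scored 198.

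Outside the densest window, 43 of the 223 peaks in the top 10% of the 10 day list were unmatched (19.3%, 14.3 to 25.1), and 3 of the 63 in that of the 5 day list (4.76%, 0.993 to 13.3). The matching shares on other chromosomes are not given here, so these values do not set chromosome 1 apart. None of these 43 and 3 peaks scored above 58 at 10 days or 72 at 5 days. The highest at 10 days away from it ran from 40039779 to 40040177, with a score of 58, and lay 48.2 kb from the nearest 5 day start. The next, from 128186285 to 128186683, scored 57 and lay 189 kb from any 5 day start. At 5 days the highest outside the window ran from 47676057 to 47676455, with a score of 72, and lay 15.9 kb from the nearest 10 day start. Further 5 day peaks without a partner were those from 88731993 to 88732391 (score 70), from 52566855 to 52567253 (score 69) and from 115942009 to 115942407 (score 53). These 3 lay 18.1, 28.0 and 3.95 kb from the nearest 10 day start.

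Neighbouring peak starts were a median of 38.1 kb apart at 10 days (36.2 to 40.1) and 90.6 kb apart at 5 days (69.8 to 108). The spread around these medians differed greatly. The interquartile range of the distances covered 13.2 to 79.6 kb at 10 days and 22.7 to 309 kb at 5 days. Distances under 10 kb made up 20.5% at 10 days (19.2 to 21.9) and 17.4% at 5 days (14.6 to 20.5). Under 1 kb there were 105 of 3369 distances at 10 days (3.12%) and 33 of 655 at 5 days (5.04%). Long distances were mostly a feature of the 5 day list: 1 distance exceeded 1 Mb at 10 days and 61 did at 5 days. Those 61 covered 106.6 Mb, or 53.1% of the length between the first and last 5 day starts. With the upper 50% of the scores of each list the median distances were 70.5 kb at 10 days and 205 kb at 5 days, and a 10 day list limited to the 5 day length gave 129.6 kb; each of these lists has fewer peaks by construction.

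**Figure D4:**
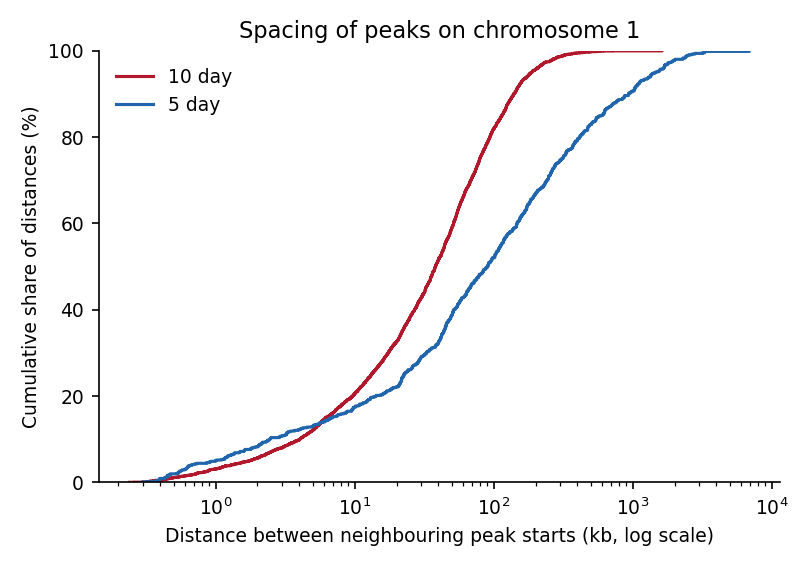
Cumulative share of the distances between neighbouring peak starts on chromosome 1, on a log axis in kb, for the 10 day (red) and 5 day (blue) lists. The curves run close below 10 kb, reach their medians at 38.1 and 90.6 kb, and the 5 day curve has a tail up to 6877 kb.

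The 5 day gaps were not empty at 10 days. The longest lay between starts at 159130409 and 166007040, a distance of 6.88 Mb, and contained 88 peaks at 10 days with scores of 22 to 35. The next, 3.31 Mb between 75753081 and 79064096, contained 24 peaks with scores of 22 to 39. Within it no 10 day peak started between 76843243 and 78468763, a distance of 1.63 Mb. The third, 3.28 Mb between 129322747 and 132601802, contained 38 with scores of 22 to 37. None of these 150 peaks was in the top 10% of the list. Taken over all 61 distances above 1 Mb, the 10 day list had 14.6 peaks per Mb inside them and 19.2 per Mb on the rest of the chromosome. Since a gap by definition has no 5 day peak inside it, nearly all overlapped 10 day peaks lay elsewhere, 360 of the 387. This raises the density outside the gaps by construction. Unmatched 10 day peaks alone numbered 1532 in the 106.6 Mb inside the gaps and 1451 in the 94.4 Mb elsewhere. Scores were likewise set side by side for unmatched peaks alone. Among these, 16 of 1532 inside the gaps were in the top 10% (1.04%, 0.598 to 1.69) and 31 of 1451 elsewhere (2.14%, 1.46 to 3.02). The 2 intervals overlapped, which does not by itself show that the shares are alike, and their difference was not tested. The median score was 24 in both places.

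Some stretches had no peak in either list. The longest 10 day distance, 1.63 Mb between starts at 76843243 and 78468763, contained 0 peaks at 5 days as well. The second, 714 kb between 7259725 and 7974179, also contained 0. The third, 612 kb between 113237843 and 113849467, contained 1 peak at 5 days, with a score of 14. In windows of 100 kb, 422 of 2010 held no peak at either age, 1171 had peaks at 10 days and none at 5 days, 32 the reverse, and 385 had peaks at both.

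At 5 days each stretch measured at an end was denser in peaks than the rest of the chromosome. These stretches are nested: 13 of the 15 peaks in the first 2 Mb lay in the first 1 Mb. Of the 30 in the first 5 Mb, 9 lay in 1 window of 100 kb. Near the right end, the 24 from 195 to 200 Mb lay in 8 windows, 1 of which held 7. The intervals cover counting error alone. The first 5 Mb ranked 5 among the bins at 5 days. Bins from 50 to 55, 80 to 85, 100 to 105 and 180 to 185 Mb held more (55, 41, 34 and 32 peaks). At 10 days the interval of the ratio excluded 1 for the first 1 Mb and the last 2 Mb and included it for the other stretches measured, and the difference between the ages was not tested. In the first 1 Mb there were 30 peaks at 10 days and 13 at 5 days, which is 1.80 (1.21 to 2.57) and 4.04 (2.14 to 6.96) times the density of the rest of the chromosome. Over the first 2 Mb the ratios were 1.13 at 10 days (0.801 to 1.56) and 2.33 at 5 days (1.30 to 3.87). Over the first 5 Mb they were 0.941 at 10 days (0.743 to 1.18) and 1.88 at 5 days (1.26 to 2.71). In the last 2 Mb before the last peak end there were 52 peaks at 10 days and 24 at 5 days, or 1.56 (1.16 to 2.05) and 3.78 (2.40 to 5.67) times the density elsewhere. The last 1 Mb had ratios of 1.07 at 10 days (0.636 to 1.70) and 2.47 at 5 days (1.06 to 4.89). The last 5 Mb had ratios of 1.11 at 10 days (0.895 to 1.37) and 1.94 at 5 days (1.31 to 2.79). The last bin, from 200 Mb, covered 0.982 Mb and held 18 peaks at 10 days and 8 at 5 days.

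The first 5 Mb had low scores at 5 days, and those of the last 5 Mb were nearer to the middle of the list. In the first 5 Mb, 8 of the 79 peaks at 10 days were in the top 10%, and their median score of 25 was that of the whole chromosome. At 5 days 2 of the 30 peaks were, and their median score was 14.5, the lowest of any bin with 5 day peaks. In the last 5 Mb before the last peak end, 10 of the 93 peaks at 10 days and 2 of the 31 at 5 days were in the top 10%. Their median scores were 26 at 10 days and 20 at 5 days, and the highest were 435 and 219. By bins, the 5 day medians near this end were also low, 15.5 from 190 to 195 Mb and 17 from 195 to 200 Mb. A window from 2600001 to 2700000 contributed 11 peaks at 10 days and 9 at 5 days to the first bin, of which 6 were overlapped at each age. Its scores reached 79 at 10 days and 20 at 5 days.

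The densest window of the chromosome, from 104400001 to 104500000, held 28 peaks at 10 days and 26 at 5 days. It made up 0.831% of the chromosome 1 peaks at 10 days and 3.96% at 5 days. Its scores were high, with medians of 196.5 at 10 days and 54 at 5 days, and it contained 11 of the 20 highest scores of the chromosome at 10 days and 7 of the 20 highest at 5 days. All but 1 of its 28 peaks at 10 days were in the top 10%, and 13 of the 26 at 5 days. The 5 day peaks spanned 104451961 to 104497822. At 10 days a single weak peak with a score of 27 stood further left, at 104421418, and the rest began at 104451520 and ended at 104497915.

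Inside this array the peaks followed each other closely and at nearly the same places at both ages. Leaving out the step from the lone left peak, neighbouring starts were a median of 1086 bp apart at 10 days and 1163 bp at 5 days, and the smallest distances were 543 and 383 bp. Of 23 paired peaks, 15 had starts within 10 bp of each other, and the median difference was 5 bp. Their scores had a rank correlation of 0.72 over 23 neighbouring pairs, which are not independent. The 10 day score was the higher number in 22 of the 23 pairs. It was also the higher in 295 of the 381 pairs of the whole chromosome and in 2289 of 2937 pairs on all other sequences. The scales of the lists are not known to be the same.

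The array also held the strongest mismatch on the chromosome. At its left edge the 10 day list had peaks starting at 104451520 and 104452404, with scores of 545 and 581, and the 5 day list had 1 peak between them, starting at 104451961, with a score of 132. The 5 day start lay 441 and 443 bp from the 10 day starts, just beyond the width of a peak, so none of the 3 counted as overlapped. A further unmatched 10 day peak, from 104496536 to 104496934, scored 64. With the window left out, the overlapped share on chromosome 1 was 10.9% at 10 days and 57.5% at 5 days.

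**Figure D5:**
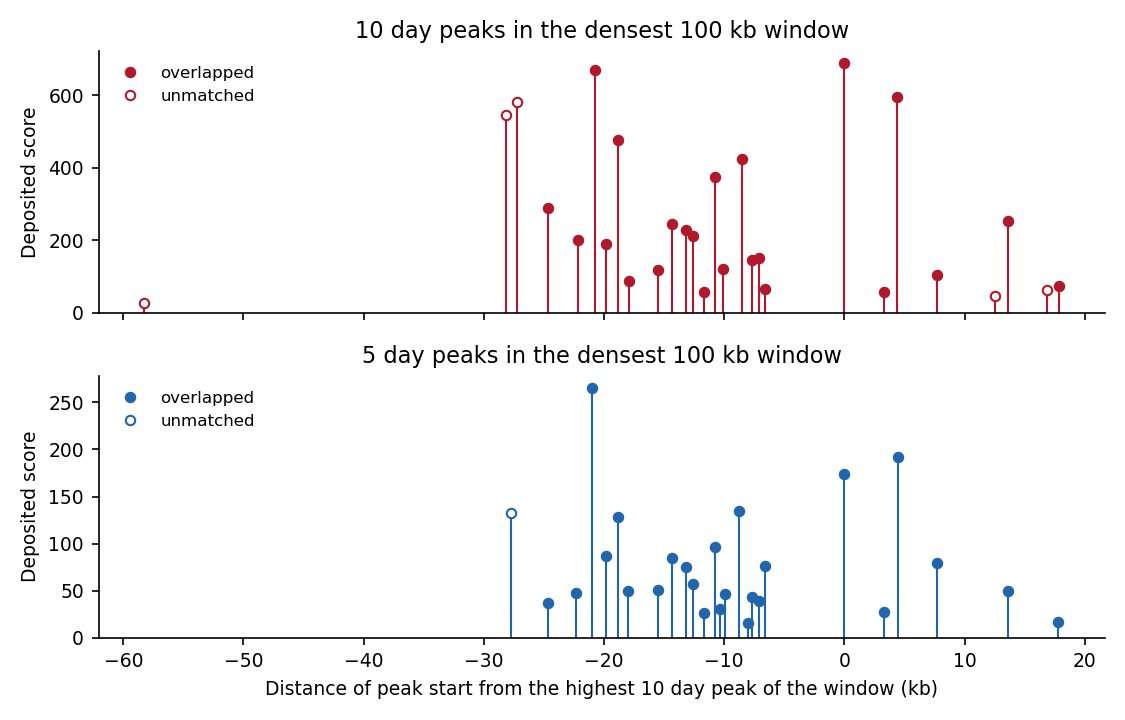
Deposited scores of the peaks in the densest 100 kb window of chromosome 1 at 10 days (upper panel) and 5 days (lower panel, with its own axis), by the distance of each peak start from the highest 10 day peak in kb. Filled points are overlapped and open points unmatched; the 10 day scores reach 689 and the 5 day scores 265.

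The other dense windows were smaller and weaker. From 79500001 to 79600000 there were 10 peaks at 10 days and 5 at 5 days, with 5 and 4 of them overlapped and scores of up to 74 and 39. From 80300001 to 80400000 there were 7 peaks at 10 days and 8 at 5 days, with 5 overlapped at each age and scores of up to 89 and 57. Peaks with a neighbour of their own list within 10 kb were overlapped in 14.0% of cases at 10 days (12.0 to 16.1), against 10.2% (8.92 to 11.5) of more isolated peaks. Without the densest window the first share was 12.3% (10.4 to 14.3). Its interval overlapped that of the isolated peaks, and the difference was not tested. At 5 days the shares were 65.9% (58.4 to 72.9) with a close neighbour and 56.5% (51.9 to 60.9) without one, and 60.7% (52.4 to 68.5) for the first without the densest window.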

How the data were processed

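The authors deposited 1 peak list per library as a BED table of 6 columns without a header, with a score in column 5; sequencing was on the Illumina Genome Analyzer, per the labels' protocols. The sources used here do not give an aligner, peak caller, threshold or build, and read depth is unknown. Ages were taken from the age field. No genome or annotation of a matching build was used, so peaks carry no gene names or sequence. Peaks were assigned to bins by their start. Lengths ran to the last peak end of either list. Shares have Clopper-Pearson intervals, ratios of counts exact conditional binomial intervals, odds ratios exact conditional intervals and medians order-statistic intervals, all at 95%. Named peaks, bins, windows and distances are the 5 highest overlapped and unmatched peaks per list, the 3 richest and poorest full bins, the first and last bin, the 3 densest windows of 100 kb and the 3 longest distances per age. Other bins and the peak at 146901784 were named after their values were seen. The chromosome, the lists and the rules were chosen with earlier results of these data known. The functions were tested on simulated data. The calculations ran in scipy 1.17.1, pandas 2.3.3 and numpy 2.4.6 under Python 3.11.15, and matplotlib 3.10.9 drew the figures.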

Additional observations from a re-analysis of the deposited data

How the results depend on the processing

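Of 55 alternatives for 12 results on chromosome 1, 39 stayed within the interval of the value reported, 15 moved outside it and 1 changed direction. The cause was not tested beyond the fewer or wider peaks or bins that an alternative has by construction. Some of the 39 had little or no room to move. Limiting the 10 day list leaves the 5 day density, share in the richest bins and spacing unchanged. The share of richest bins common to both ages had an interval of 6.67 to 65.2%, which held all its alternatives. Limiting the 10 day list to 5809 peaks (scores of at least 29) gave a ratio of 10 day to 5 day peaks of 1.26, overlapped shares of 35.7% at 10 days and 45.3% at 5 days, a share in the richest bins of 21.2% and a median distance of 129.6 kb at 10 days; the 10 day density relative to chromosomes 2 to 5 became 1.01. The upper 50% of the scores gave overlapped shares of 15.6% at 10 days and 77.3% at 5 days, shares in the richest bins of 17.4% and 33.7%, and median distances of 70.5 and 205 kb. Peaks widened by 500 bp gave 12.8% overlapped at 10 days. Bins of 2 Mb put 17.7% of peaks in the richest bins at 10 days and 35.6% at 5 days, and bins of 10 Mb put 24.7% of the 5 day peaks there. Counting peaks under 1 kb apart once, run for 10 of the results and not for the overlapped shares, moved none of those 10, and leaving out the densest window moved none of the 12. Leaving out that window for the odds of a high score was chosen after the data were seen. No paired analysis was possible because neither age has a replicate, and no library could be left out. Since read depth is unknown, a peak missing from a list does not show that the site was unbound.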

Other observations

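Sequence assigned to chromosome 1 without a position is listed under its own name and was not counted above. It held 3 peaks at 10 days and 1 at 5 days.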
